A study of Rattus norvegicus with 54 samples.

Results

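The solute carriers of the rat heart outside the mitochondrial Slc25 family were taken from the filtered table of expression values as every gene whose symbol starts with Slc and a digit but not with Slc25a, with copies of a symbol counted once. This gave 142 genes among the 9998 distinct symbols of the table, of which 138 are carriers and 4 (Slc4a1ap, Slc7a6os, Slc9a3r1, and Slc9a3r2) are proteins named after a carrier. They were read by what they move: 27 carry amino acids, taurine, or creatine, 21 nucleosides or nucleotide sugars, 19 sodium, potassium, chloride, bicarbonate, or protons, 18 zinc, 13 fatty acids, carnitine, or other organic ions, 11 glucose or other sugars, 10 choline, vitamins, or lipids, 7 lactate or other monocarboxylates, 5 iron, copper, or heme, 4 phosphate, sulfate, or magnesium, and 3 vesicular cargo. RNA-Seq was done on hearts of 54 male wild-type Wistar rats, 7 to 8 weeks old when a 5-week protocol began and kept singly in 12 h of light and 12 h of dark. The 18 control rats (C) were left undisturbed with food and water at all times, the 18 workers (W) spent the working hours of weekdays, within their rest phase, awake in a slowly turning drum with food and water, and the 18 WRF rats did the same work but had food only outside it. Hearts were taken on a day without work from 3 rats per group at each of ZT1, 5, 9, 13, 17, and 21, where ZT is the time in hours after lights-on. The unit is fpkm, fragments per kilobase of transcript scaled to the mapped reads of the library, and the comparisons ask whether shift work, or shift work without food, alters the level or the daily rhythm of heart transcripts.

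Solute carriers are membrane proteins that move small molecules across the plasma membrane or the membranes of organelles, by exchange, by cotransport with an ion, or down a gradient. In heart muscle the glucose carrier GLUT4, encoded by Slc2a4, moves to the cell surface under insulin and contraction, the monocarboxylate carrier Slc16a1 takes up lactate as a fuel, and the sodium-calcium exchanger Slc8a1 removes calcium after each beat. Zinc is exported from the cytosol by the Slc30 family and let into it by the Slc39 family.

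The promoters of Slc41a3, a magnesium carrier, and Slc37a1, a glucose-6-phosphate carrier of the endoplasmic reticulum, are shown because these 2 members were rhythmic in C hearts by the test given with the rhythms. Both are the 250 bases upstream of the start of the gene on the plus strand, from RefSeq, assembly GRCr8, which is not the build of the expression values. The letters CACGTG, the E-box bound by clock factors such as CLOCK and ARNTL, read the same on both strands and are in capitals where present.
Slc41a3 promoter, chr4:124684717-124684966: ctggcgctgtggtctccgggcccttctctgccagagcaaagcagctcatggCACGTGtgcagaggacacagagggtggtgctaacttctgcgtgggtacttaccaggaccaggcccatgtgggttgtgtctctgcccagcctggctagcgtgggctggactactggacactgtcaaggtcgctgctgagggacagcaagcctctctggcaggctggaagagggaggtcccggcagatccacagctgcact
Slc37a1 promoter, chr20:9379932-9380181: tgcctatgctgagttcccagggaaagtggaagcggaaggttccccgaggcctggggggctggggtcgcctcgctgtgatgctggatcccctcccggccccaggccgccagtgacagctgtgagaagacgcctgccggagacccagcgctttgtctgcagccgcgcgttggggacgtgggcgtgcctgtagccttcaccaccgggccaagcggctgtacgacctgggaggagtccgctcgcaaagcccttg
The Slc41a3 sequence held 1 such E-box, whose first base lies 199 bases before the start, and the Slc37a1 sequence held 0. Promoters were found for 112 of the 142 members, and 16 of them (14.3%) held CACGTG, against 5.59% of all 33469 promoters of the same length. Members were counted with 1 promoter per symbol. The 33469 promoters were not, and they include genes outside the expression values. The shares are therefore not like for like, and their difference was not tested. A match describes these letters and is not a measured binding site.

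A few libraries stood apart, and the solute carriers stood apart with them. WRF51 (ZT9) held 1419 fpkm of the lung gene Ager against at most 4.79 in C, and its 5 ventricular markers summed to 411 fpkm against 11736 to 29052 in C. WRF62 (ZT5) held 106 fpkm of the T cell gene Cd3e, its 5 T cell markers summed to 597 fpkm against at most 22.3 in C, and its ventricular markers summed to 2021 fpkm. Of the 142 solute carriers, 80 lay above and 23 below the range of the C rats in WRF51, and 63 above and 28 below in WRF62. C27 (ZT9), with 16085 fpkm of the atrial light chain Myl7, had 69 above and 10 below the range of the other 17 C rats. W21 (ZT17), whose liver markers summed to 1441 fpkm against at most 185 in C, had 3 above and 1 below. Results are therefore given with all rats and without WRF51 and WRF62, and where it matters without C27. Whole hearts with atria were used, and libraries with over 100 fpkm of Myl7, called atrium-containing, numbered 6 in C, 7 in W, and 9 in WRF. Summed over all genes, the median library held 478799 fpkm in C, 505910 in W, and 572371 in WRF. The depth of the libraries is unknown from fpkm.

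Carriers of heart muscle were among those below the C range in WRF51 and WRF62. Slc2a4 read 3.31 fpkm in WRF51 and 18.9 in WRF62 against 63.4 to 134 in C. The glutamine and histidine carrier Slc38a3 read 0.366 and 1.2 fpkm against 6.4 to 24.1. The creatine carrier Slc6a8 read 9.67 and 5.19 fpkm against 22.9 to 33.6. In both libraries all 3 carriers lay below the range of the C rats. Upwards the libraries differed. Slc16a11 reached 51.2 fpkm and the lactate exporter Slc16a3 20.7 fpkm in WRF51, against at most 3.64 and 1.75 in C and 1.59 and 2.01 in WRF62. The glutamine carrier Slc1a5 reached 45.1 fpkm and the leucine carrier Slc7a5 11.5 fpkm in WRF62, against 11.5 and 8.47 in WRF51 and at most 4.21 and 2.76 in C. In bulk hearts, fewer cells of a type and less RNA per cell cannot be told apart.

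**Figure D1:**
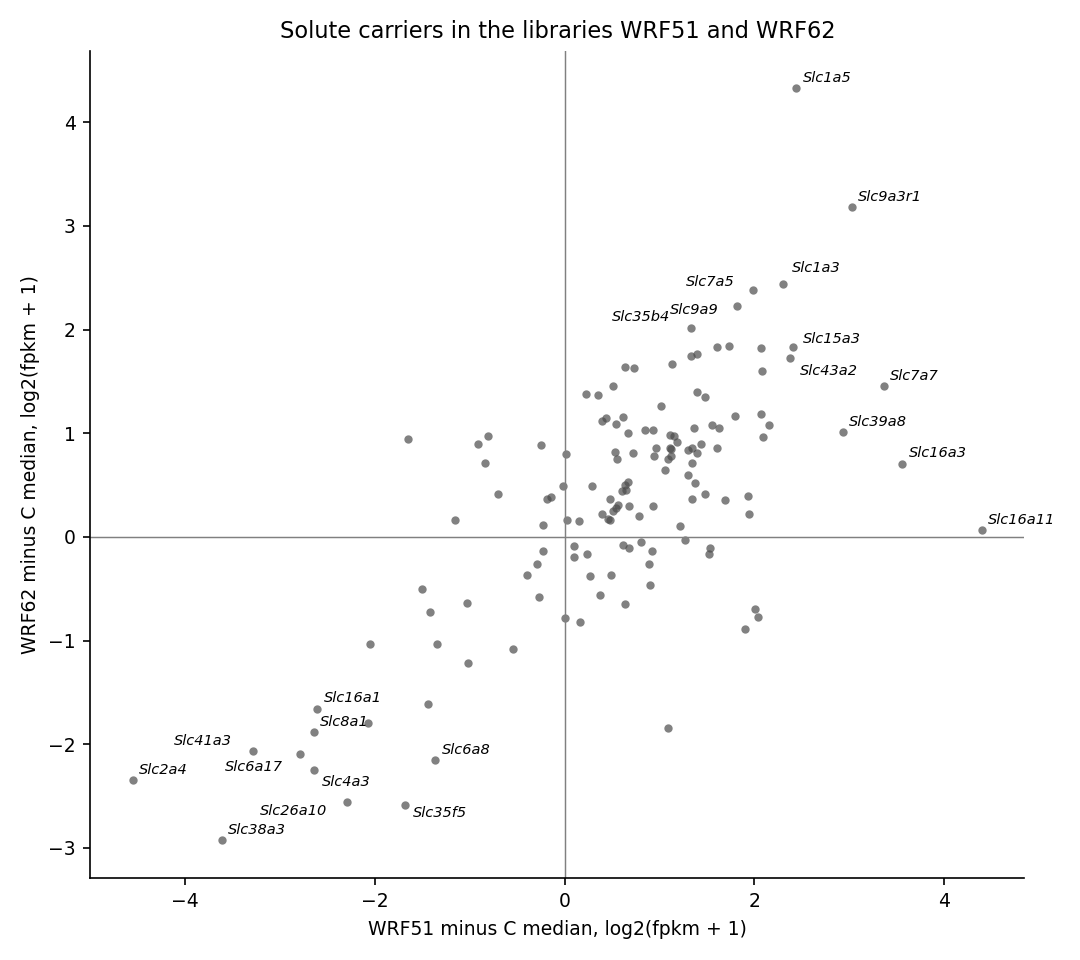
Each point is 1 of the 142 solute carriers. The axes give its log2(fpkm + 1) in the library WRF51 (horizontal) and WRF62 (vertical) minus that of the C median, and the grey lines mark no difference. Slc2a4 and Slc38a3 lie low in both libraries, Slc16a11 stands out in WRF51, at 51.2 fpkm against 1.59 in WRF62, and Slc1a5 lies highest on the WRF62 axis, at 45.1 fpkm.

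Most solute carriers were low in the heart. The C medians ran from 0.843 to 100.1 fpkm, with a median over members of 3.65 fpkm against 6.73 over all genes, and 16 members exceeded 20 fpkm, 38 lay from 5 to 20, and 88 under 5, 42 of these under 2. The fpkm scale is per transcript length, so levels can be set side by side between genes. Slc2a4 stood first, with lowest, median, and highest values of 63.4, 100.1, and 134 fpkm in C, 56.6, 98.1, and 113 in W, and 3.31, 102, and 131 in WRF (72.1 at the lowest without WRF51 and WRF62). Slc16a1 came next, with 30.9, 58.6, and 99.9 fpkm in C, 21.4, 60.1, and 120.1 in W, and 8.77, 48.1, and 79 in WRF. The ranges of these genes overlapped in C, and the median of Slc2a4 lay above every C value of Slc16a1. Slc9a3r2, a scaffold of the sodium-proton exchanger and not a carrier, followed with a C median of 56.5 fpkm.

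Below these, neighbours in the order of the C medians lay within each other's ranges: the amino acid carrier Slc38a2 (34.4 fpkm), Slc35f5 (33.7), the potassium-chloride cotransporter Slc12a7 (32.9), the chloride-bicarbonate exchanger Slc4a3 (29.4), Slc35b1 (28.3), Slc8a1 (27.6), Slc6a8 (26.5), the heme carrier Slc48a1 (26), the choline carrier Slc44a2 (25.2), the fatty acid transport protein Slc27a1 (22.4), the zinc importer Slc39a1 (20.7), Slc4a1ap, no carrier (20.4), and Slc3a2, the heavy chain shared by several amino acid carriers (20.2). Carriers better known from other tissues were low. The GLUT1 gene Slc2a1 had a C median of 5.32 fpkm, the GLUT3 gene Slc2a3 0.886, the lactate exporter Slc16a3 0.843, and Slc7a5, the light chain partner of Slc3a2, 1.4. The median coefficient of variation among rats was 29.5% in C, 23.8% in W, and 44% in WRF, or 26.2% in WRF without WRF51 and WRF62.

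**Figure D2:**
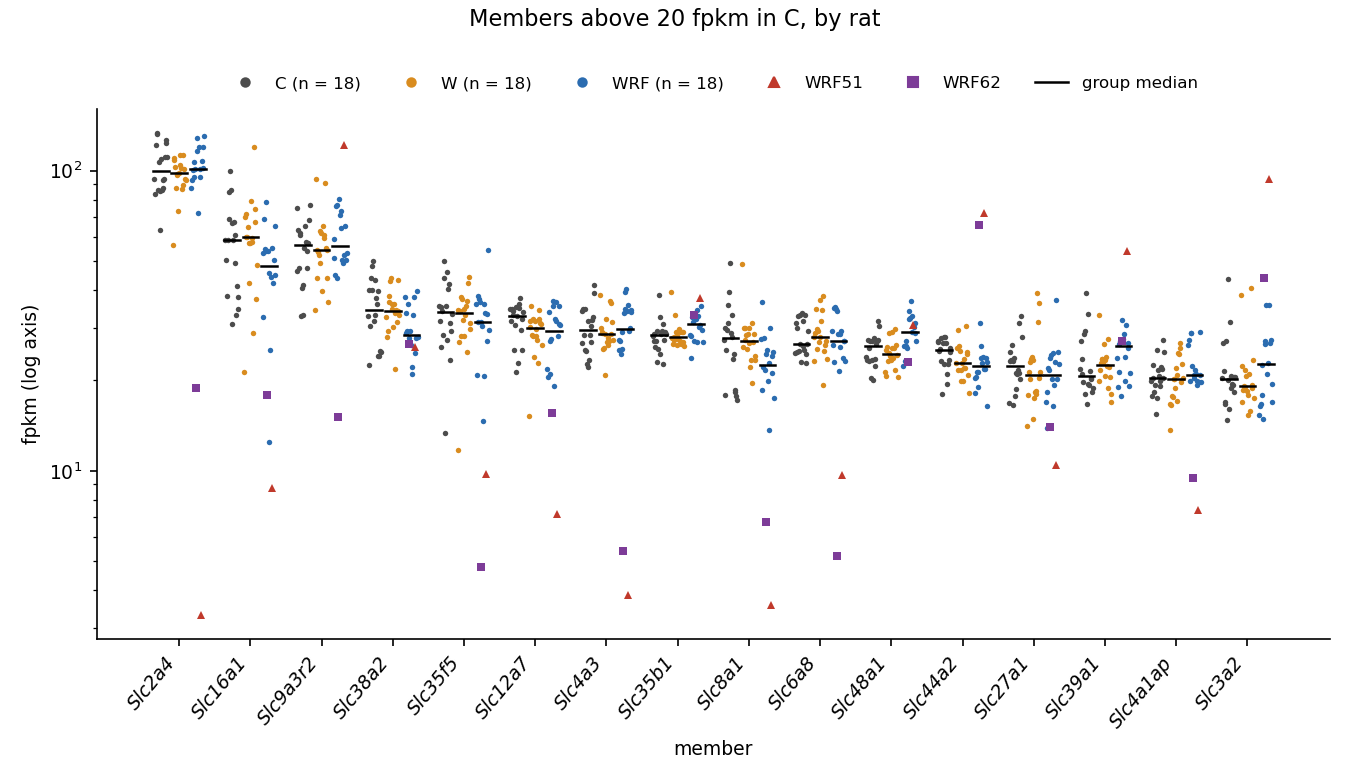
Levels of the 16 members with a C median over 20 fpkm, 1 point per rat on an axis in fpkm, with 18 rats per group (C, W, WRF). Slc2a4 and Slc16a1 are the highest, and the lowest points of Slc2a4 in WRF are WRF51 (3.31 fpkm) and WRF62 (18.9 fpkm).

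Among the 3 groups, 2 of the 142 members differed by the Kruskal-Wallis test (Benjamini-Hochberg adjusted p of at most 0.05 over 10257 genes), against 9.17% of all genes, or 941. At an unadjusted p under 0.05 the counts were 32 members and 28.8% of all genes. These 2 members are the zinc carrier Slc30a6 and the nucleoside carrier Slc29a3. By the Mann-Whitney test that followed, 1 member was higher in WRF than in C (8.13% of all genes), 0 were lower (0.721%), 2 were higher (8.26%) and 0 lower (0.692%) in WRF than in W, and 0 were higher (0.234%) and 1 lower (0.195%) in W than in C. Without WRF51 and WRF62, 0 members differed by the Kruskal-Wallis test (6.42% of all genes), with 24 at an unadjusted p under 0.05 (28.5%), so that 0 were higher (5.72%) and 0 lower (0.517%) in WRF than in C, whereas without C27 the number was 5 (11.7% of all genes), namely Slc26a10, Slc29a3, Slc30a6, Slc50a1, and Slc7a6os, and without all 3 libraries it was 0 (7.7%). After median-of-ratios scaling 3 differed (4.31% of all genes), with Slc7a6os higher (2.17%) and Slc28a2 and Slc9a8 lower (2.06%) in WRF than in C, and over all genes this scaling gave 223 higher and 211 lower where the values as deposited gave 834 and 74. The ranges of C and WRF rats overlapped in all 142 members, as did those of WRF and W and of W and C. No share over all genes stands beside this, so it does not set the members apart from other genes.

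On the log2(fpkm + 1) scale, limma found 6 members higher (11.3% of all genes) and 2 lower (1.68%) in WRF than in C at an adjusted p of at most 0.05, and 12 higher (12.4%) and 5 lower (1.83%) in WRF than in W. At an unadjusted p under 0.05, 22 were higher (24.8%) and 13 lower (6.7%) in WRF than in C. The difference between W and C passed in 0 members and 0 genes, with Slc10a2 higher (0.487% of all genes) and Slc29a2 lower (0.429%) in W at an unadjusted p under 0.05. Over the members, the median WRF minus C difference was 0.05, against 0.08 over all genes. Of the members, 81 of 142 (57%) were above 0, against 64.1% of all genes. After median-of-ratios scaling the median was -0.03, against -0.004 over all genes, with 63 members (44.4%) above 0, against 49.2% of all genes. Without WRF51 and WRF62, and without that scaling, the median was -0.02, against 0.03 over all genes. Of the members, 64 of 142 (45.1%) were then above 0, against 56.5% of all genes. Without these libraries limma called 2 members higher (9.32% of all genes) and 2 lower (1.59%) in WRF than in C. Against W it called 4 higher (10.1%) and 4 lower (2.09%). By class, and among classes of over 3 members, the medians furthest from 0 were those of the 4 proteins named after a carrier (0.18, with 3 of 4 above 0), the nucleoside and nucleotide-sugar carriers (0.12, with 15 of 21 above 0), and the phosphate and magnesium carriers (-0.25, with 1 of 4 above 0), and these medians were 0.16, 0.04, and -0.03 without WRF51 and WRF62. No difference between groups of carriers was tested.

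**Figure D3:**
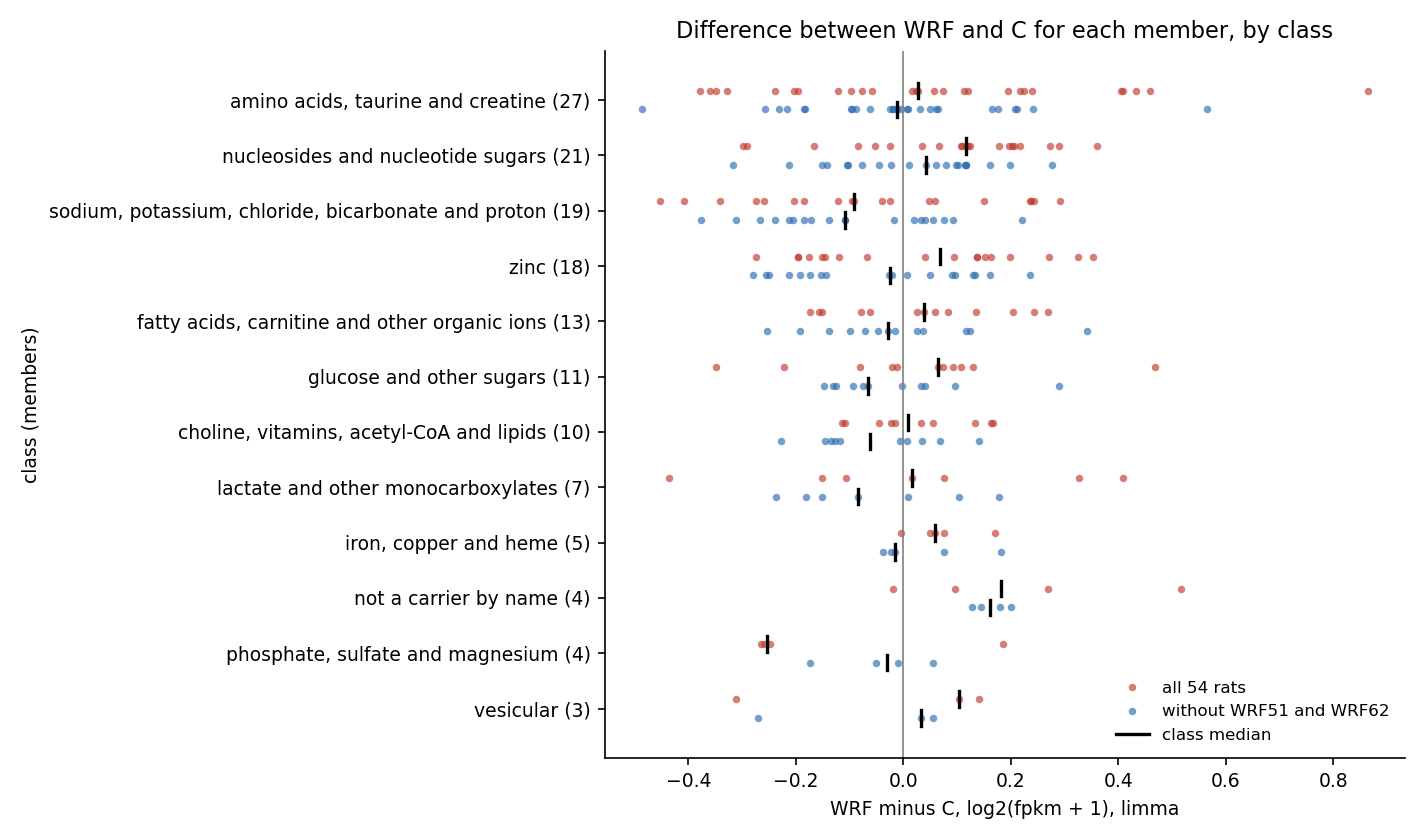
The WRF minus C difference of each of the 142 members on the log2(fpkm + 1) scale from limma, by class, with 1 point per member, for all rats and without WRF51 and WRF62. The class medians run from -0.25 (phosphate and magnesium) to 0.18 (not carriers) with all rats.

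Among the 18 zinc carriers, 1 differed among groups. Slc30a6, which works with Slc30a5 to load zinc into the secretory pathway, had lowest, median, and highest values of 2.24, 2.94, and 3.91 fpkm in C, 1.75, 2.54, and 4.19 in W, and 2.12, 3.27, and 6.54 in WRF. The highest WRF value without WRF51 and WRF62 was 3.88, so the groups overlapped almost wholly, and the order of the medians was W, C, WRF. Its Kruskal-Wallis adjusted p was 0.0272. The median was 1.29 times that of W in WRF (Mann-Whitney p = 0.000671, 17 of 18 WRF rats above the W median) and 0.864 times that of C in W (p = 0.0218, 6 of 18 W rats above the C median), while WRF and C did not pass (p = 0.103). Without WRF51 and WRF62 the Kruskal-Wallis adjusted p was 0.0545, and the limma difference from W went from 0.27 ± 0.08 (SE, adjusted p = 0.0211) to 0.18 ± 0.06 (adjusted p = 0.046). The call was also lost under median-of-ratios scaling (Kruskal-Wallis adjusted p = 0.0604). Its median in atrium-poor and atrium-containing libraries was 2.85 and 3.61 fpkm in C, 2.51 and 2.94 in W, and 3.11 and 3.38 in WRF without WRF51 and WRF62.

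The zinc importers gave calls in both directions. Slc39a3 read 1.86, 3.21, and 4.11 fpkm (lowest, median, highest) in C, 2.38, 3.07, and 4.08 in W, and 2.39, 3.78, and 10.04 in WRF, and rose by limma in WRF over C (0.27 ± 0.10, adjusted p = 0.0496) and over W (adjusted p = 0.0448). Slc39a14, an importer of zinc and iron, read 5.33, 9.04, and 12.8 fpkm in C, 5.6, 9.6, and 20.9 in W, and 2.76, 8.08, and 11.2 in WRF, and was lower in WRF than in W by limma (-0.36 ± 0.12, adjusted p = 0.045). Both calls were lost without WRF51 and WRF62, where the limma adjusted p was 0.135 for Slc39a3 against C and 0.106 for Slc39a14 against W. Slc39a7, which releases zinc from the endoplasmic reticulum, had medians of 18.4, 18.5, and 24.7 fpkm in C, W, and WRF, and its limma difference between WRF and C did not pass (0.35 ± 0.13, adjusted p = 0.0593). Slc39a8, an importer of zinc and manganese, read 0.619, 2.47, and 9.73 fpkm in C and 0.901, 3.39, and 25.5 in WRF, where the highest value is WRF51, and the zinc exporter Slc30a1 0.586, 3.07, and 6.6 fpkm in C and 0.641, 2.5, and 4.96 in WRF. Neither passed.

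Among the 21 nucleoside and nucleotide-sugar carriers, Slc29a3, the nucleoside carrier of lysosomes, differed among groups. Its lowest, median, and highest values were 1.72, 3.28, and 4.93 fpkm in C, 1.98, 2.59, and 5.17 in W, and 1.93, 4.22, and 10.9 in WRF, with a highest value of 8.67 without WRF51 and WRF62. The order of the medians was W, C, WRF, with wide overlap. The Kruskal-Wallis adjusted p was 0.0401, and the WRF median was 1.28 times the C median (Mann-Whitney p = 0.0237, 13 of 18 WRF rats above it) and 1.62 times the W median (p = 0.000753, 16 of 18 above it), while W and C did not pass (p = 0.402). The call was lost under median-of-ratios scaling (Kruskal-Wallis adjusted p = 0.0619). By limma the difference from C was 0.36 ± 0.12 (adjusted p = 0.0463). Without WRF51 and WRF62, the Kruskal-Wallis adjusted p was 0.0798 and the limma difference from C 0.28 ± 0.12 (adjusted p = 0.102), whereas that from W still passed (0.40 ± 0.12, adjusted p = 0.0263). By atrial content, its median was 2.52 fpkm in the 12 atrium-poor and 4.01 in the 6 atrium-containing libraries of C, 3.04 and 4.84 in those of WRF, 8 libraries each without WRF51 and WRF62, and 2.59 and 2.6 in the 11 and 7 libraries of W. The part of atrial content in the result was not tested. In WRF these atrium-poor libraries were WRF1 to WRF6, WRF54, and WRF55, so atrial content is nearly the same split there as the runs of rat numbers.

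Slc28a2, which takes up purine nucleosides with sodium, went the other way. It read 12.3, 17.4, and 29.8 fpkm (lowest, median, highest) in C, 12.3, 18.7, and 28 in W, and 10.5, 14, and 23.3 in WRF, where 1 of 18 rats lay above the W median. By limma it was lower in WRF than in W (-0.34 ± 0.11, adjusted p = 0.0341), also without WRF51 and WRF62 (-0.36 ± 0.11, adjusted p = 0.0347), while against C it missed the threshold (-0.29 ± 0.11, adjusted p = 0.0628). The Kruskal-Wallis adjusted p was 0.0736. Slc35b2, which brings the sulfate donor PAPS into the Golgi, read 4.16, 7.16, and 11.8 fpkm in C and 5.64, 8.55, and 16.6 in WRF and rose over C by limma (0.29 ± 0.10, adjusted p = 0.0454), a call lost without WRF51 and WRF62 (adjusted p = 0.126). Slc35a4 and the GDP-fucose carrier Slc35c1 were higher in WRF than in W by limma (0.21 ± 0.06 and 0.32 ± 0.10), and both calls were lost without these libraries (adjusted p = 0.0683 and 0.0861). Slc29a1, the main equilibrative nucleoside carrier of the plasma membrane, read 7.7, 12, and 18.3 fpkm in C, 8.27, 11.2, and 14.9 in W, and 6.61, 14.1, and 52.4 in WRF, with 17.4 at the highest without WRF51 and WRF62, and did not pass.

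**Figure D4:**
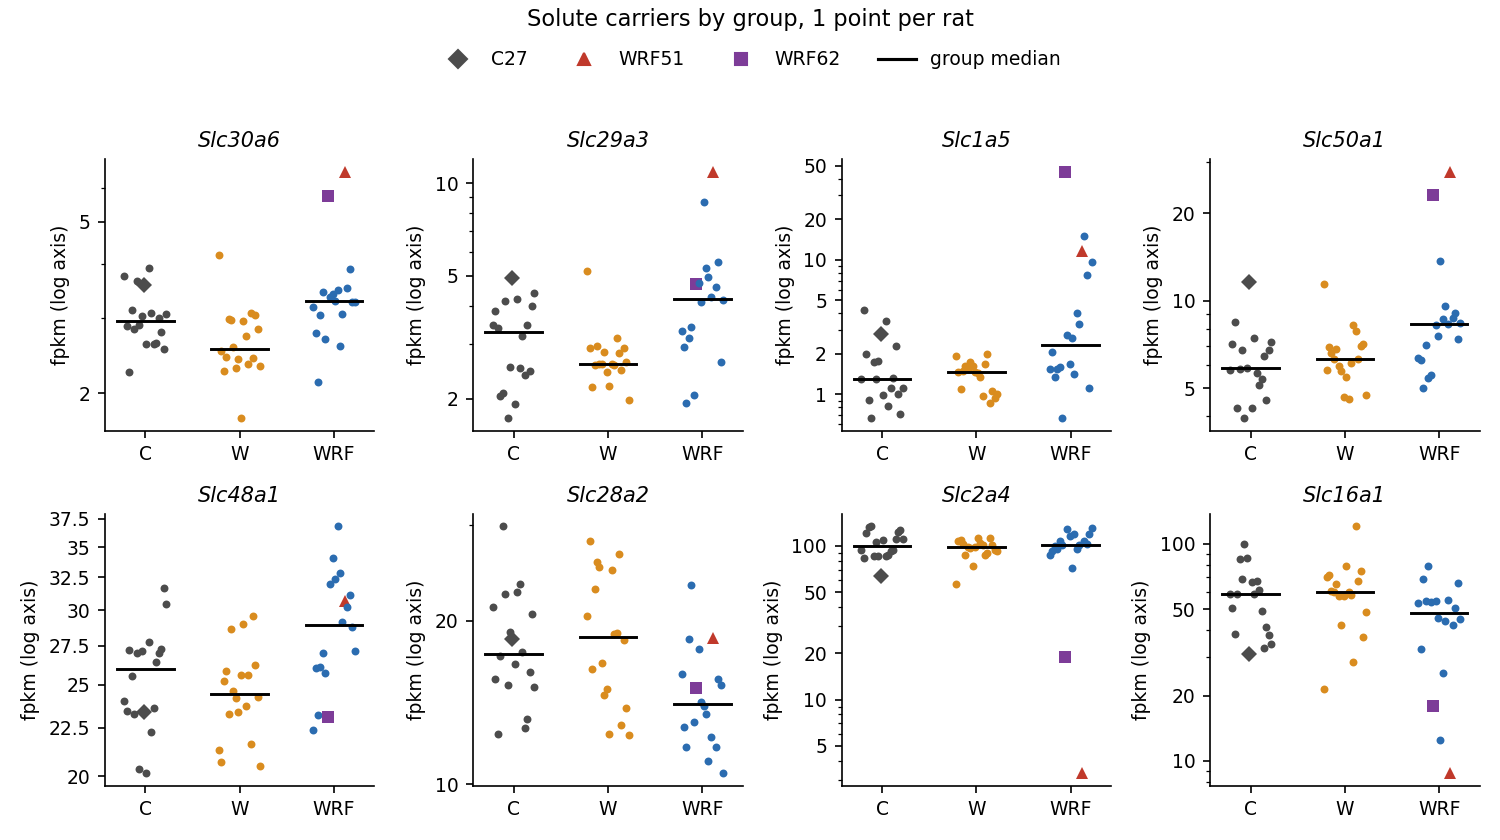
Levels in fpkm of 8 members in C, W, and WRF hearts, 1 point per rat (18 per group) with a line at the group median, and with C27, WRF51, and WRF62 marked by their own symbols. The ranges of the groups overlap in every panel, the WRF medians of Slc30a6, Slc29a3, Slc1a5, Slc50a1, and Slc48a1 are the highest of the 3, and that of Slc28a2 is the lowest.

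Of the 27 amino acid carriers, 0 passed the Kruskal-Wallis test, and limma called 1 higher and 1 lower in WRF than in C. Slc1a5, a carrier of glutamine and other neutral amino acids, read 0.665, 1.3, and 4.21 fpkm (lowest, median, highest) in C, 0.862, 1.47, and 2.0 in W, and 0.663, 2.34, and 45.1 in WRF (15.1 at the highest without WRF51 and WRF62). It rose by 0.87 ± 0.26 in WRF over C by limma (adjusted p = 0.0216, 16 of 18 rats above the C median). Without WRF51 and WRF62 the limma difference was 0.57 ± 0.20 against C (adjusted p = 0.0525) and 0.64 ± 0.20 against W (adjusted p = 0.0348). The 3 series of WRF rats were unlike each other in this gene, with medians of 1.55, 2.71, and 8.68 fpkm, against 1.12 to 1.54 in the C series. By atrial content, its median was 1.12 fpkm in atrium-poor and 2.26 in atrium-containing C libraries, 1.44 and 1.54 in W libraries, and 1.55 and 3.06 in WRF without WRF51 and WRF62. Slc3a1, a heavy chain of cystine and basic amino acid transport, read 4.2, 6.78, and 10.2 fpkm in C and 1.54, 5.97, and 8.51 in WRF and was lower in WRF by limma (-0.36 ± 0.12, adjusted p = 0.0427, or 0.126 without WRF51 and WRF62).

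The highest amino acid carrier, Slc38a2, read 22.4, 34.4, and 50 fpkm in C, 21.9, 34.2, and 43.9 in W, and 20.9, 28.4, and 39.6 in WRF, and its limma difference between WRF and C was -0.20 ± 0.10 (adjusted p = 0.135). The creatine carrier Slc6a8 had medians of 26.5, 27.8, and 27.1 fpkm. For Slc7a5 they were 1.4, 1.23, and 1.96, with a limma adjusted p of 0.064 between WRF and C, and for the arginine carrier Slc7a1 1.15, 1.25, and 1.16. None of these 4 passed in either test. Slc1a3, a glutamate carrier, read 0.451, 0.866, and 3.41 fpkm in C, 0.494, 0.966, and 1.73 in W, and 0.789, 1.27, and 9.1 in WRF and was higher in WRF than in W by limma (0.54 ± 0.19, adjusted p = 0.0441), but not without WRF51 and WRF62 (adjusted p = 0.125). The taurine carrier Slc6a6 read 1.26, 4.97, and 11.8 fpkm in C, 2.4, 5.41, and 13 in W, and 0.499, 3.48, and 11.4 in WRF, and was lower in WRF than in W by limma without WRF51 and WRF62 (-0.65 ± 0.23, adjusted p = 0.0492) but not with all rats (adjusted p = 0.13). Without those libraries its atrium-containing medians were 2.49 fpkm in WRF and 7.02 in W, but its atrium-poor medians were 4.14 and 3.81.

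None of the 11 sugar carriers passed the Kruskal-Wallis test with all rats, the main glucose carriers included. GLUT4 (Slc2a4) had a limma difference between WRF and C of -0.35 ± 0.24 (adjusted p = 0.304), which became 0.04 ± 0.09 (adjusted p = 0.761) without WRF51 and WRF62, so its sign was not the same without those libraries. Slc2a1 read 2.16, 5.32, and 7.71 fpkm in C, 2.84, 5.19, and 8.47 in W, and 2.9, 5.41, and 23.2 in WRF. Of the 11 sugar carriers, 1 rose in WRF over C by limma: Slc50a1, a sugar carrier of the Golgi and plasma membrane, read 3.93, 5.85, and 11.6 fpkm in C, 4.59, 6.3, and 11.4 in W, and 5.0, 8.3, and 27.8 in WRF, with 15 of 18 WRF rats above the C median (0.47 ± 0.14, adjusted p = 0.0235). It missed the threshold without WRF51 and WRF62 (0.29 ± 0.11, adjusted p = 0.0638). Slc2a12 was lower in WRF than in W (-0.25 ± 0.08, limma adjusted p = 0.0383), and not without these libraries (adjusted p = 0.0871).

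Of the 7 monocarboxylate carriers, 0 passed either test in any comparison of groups with all rats. Slc16a1 had a limma difference between WRF and C of -0.44 ± 0.21 with all rats (adjusted p = 0.142), and it read -0.24 ± 0.18 when WRF51 and WRF62 were left out (adjusted p = 0.372), with medians of 58.6, 60.1, and 48.1 fpkm in C, W, and WRF. Its spread within a group was wide, from 21.4 to 120.1 fpkm in W. Slc16a3 read 0.601, 1.06, and 20.7 fpkm in WRF, with 20.7 in WRF51, 2.01 in WRF62, and at most 1.68 in the other WRF rats.

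None of the 19 ion carriers passed the Kruskal-Wallis test with all rats. The median WRF minus C difference of this class was -0.09, with 7 of 19 above 0, and -0.11 without WRF51 and WRF62. Slc8a1 read 17.3, 27.6, and 49.1 fpkm in C, 19.7, 27.1, and 48.9 in W, and 3.57, 22.6, and 36.5 in WRF, with a limma difference of -0.41 ± 0.17 (adjusted p = 0.083), or -0.18 ± 0.11 (adjusted p = 0.261) without WRF51 and WRF62. Slc4a3, Slc12a7, and the sodium-potassium-chloride cotransporter Slc12a2 had WRF medians of 29.6, 29.3, and 4.57 fpkm against C medians of 29.4, 32.9, and 5.14, and none of them passed. Slc9a8, a sodium-proton exchanger of endosomes, read 2.51, 4.55, and 5.98 fpkm in C, 2.83, 3.84, and 5.16 in W, and 1.66, 3.61, and 5.41 in WRF. It was just outside the limma threshold with all rats (-0.27 ± 0.10, adjusted p = 0.0502) and lower in WRF without WRF51 and WRF62 (-0.31 ± 0.10, adjusted p = 0.0326). Slc26a10 read 8.06, 18.6, and 50.1 fpkm in W and 2.07, 14.1, and 29.1 in WRF and was lower than in W by limma (-0.68 ± 0.21, adjusted p = 0.0279), but not without WRF51 and WRF62 (adjusted p = 0.0747).

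Of the 4 phosphate and magnesium carriers, the magnesium exporter Slc41a1 was lower in WRF. It read 12.5, 17.3, and 20.9 fpkm in C, 12.4, 15.7, and 19.8 in W, and 5.45, 14.8, and 19.6 in WRF, and 3 of 18 WRF rats and 3 of 18 W rats lay above the C median. The limma difference between WRF and C was -0.27 ± 0.09 (adjusted p = 0.0331), and with WRF51 and WRF62 left out it missed the threshold (-0.17 ± 0.06, adjusted p = 0.0624). The phosphate carriers Slc20a1 and Slc20a2 had medians of 7.56 and 17.9 fpkm in C and 7.58 and 17.1 in WRF, and neither passed.

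Among the 5 iron, copper, and heme carriers, Slc48a1, which moves heme out of endosomes and lysosomes, passed the limma test against W with and without WRF51 and WRF62. It read 20.1, 26, and 31.6 fpkm in C, 20.5, 24.5, and 29.6 in W, and 22.4, 29, and 36.8 in WRF, with 14 of 18 WRF rats above the C median and 15 above the W median. By limma it was higher in WRF than in W (0.21 ± 0.06, adjusted p = 0.0211), also without WRF51 and WRF62 (0.23 ± 0.06, adjusted p = 0.0203). Against C, the limma adjusted p was 0.0519 with all rats and 0.0413 without these (0.18 ± 0.06). The Kruskal-Wallis adjusted p was 0.0585 with all rats and 0.0545 without WRF51 and WRF62, both outside the threshold. In atrium-containing libraries its medians were 23.7, 25.2, and 32.2 fpkm in C, W, and WRF without WRF51 and WRF62, while in atrium-poor libraries they were 26.7, 24.3, and 26.1, where WRF lay below C. The iron exporter Slc40a1, the iron importer Slc11a2, and the copper importer Slc31a1 had C medians of 5.9, 5.3, and 3.82 fpkm and WRF medians of 6.37, 5.08, and 4.06, and did not pass.

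In the remaining classes 0 members passed the Kruskal-Wallis test with all rats. The fatty acid transport protein Slc27a1 read 16.5, 22.4, and 32.9 fpkm in C and 10.5, 20.9, and 37.1 in WRF. The carnitine carrier Slc22a5 varied little among C rats, with 4.41, 5.22, and 6.04 fpkm in C, 3.84, 5.21, and 6.33 in W, and 2.51, 4.94, and 6.9 in WRF. Slc27a4 was higher in WRF than in W by limma (0.32 ± 0.11, adjusted p = 0.0418), and not without WRF51 and WRF62 (adjusted p = 0.101). Slc22a23 passed against C only without these libraries, where it was lower in WRF (-0.25 ± 0.08, limma adjusted p = 0.0307). Of the vitamin carriers, the thiamine carrier Slc19a2 was lower in WRF than in W (-0.22 ± 0.07, limma adjusted p = 0.0424), also without WRF51 and WRF62 (adjusted p = 0.0413), and the biotin and pantothenate carrier Slc5a6 was higher (0.21 ± 0.07, adjusted p = 0.0316), but not without them (adjusted p = 0.0561). Of the 4 genes that are no carriers, Slc7a6os, which lies opposite Slc7a6, read 4.19, 5.99, and 7.69 fpkm in C, 4.28, 6.53, and 7.77 in W, and 5.89, 7.05, and 13.3 in WRF. It rose over C by limma with all rats (0.27 ± 0.08, adjusted p = 0.017, 16 of 18 WRF rats above the C median), and still passed with WRF51 and WRF62 left out (0.18 ± 0.06, adjusted p = 0.0444).

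The counts depended on which rats were left out. Runs of rat numbers were read as 3 series of 6 rats in each group, 1 rat per time. No label marks these series as a batch or cohort, and WRF62, whose number lies outside the run, was placed with WRF41 to WRF46 as the rat of the missing ZT5. Without the series C33 to C38, 28 members differed among groups (26.9% of all genes), of which 4 were higher in WRF than in C (14.6% of all genes) and 20 lower (11.2%). Without WRF1 to WRF6, 45 differed (31.2% of all genes), with 37 higher (24.9%) and 6 lower (5.15%). Leaving out another series gave 0 to 3 members. The limma contrasts of light hours likewise called 56 members without WRF1 to WRF6 (38.6% of all genes) and 0 with all rats. The series also differed in atrial content: 0 of the 6 libraries exceeded 100 fpkm of Myl7 in C33 to C38, in W33 to W38, and in WRF1 to WRF6, against 3 and 3 in the other C series, 2 and 5 in the other W series, and 6 and 3 in WRF41 to WRF62 and WRF50 to WRF55. Median sums over all genes ran from 426879 fpkm in C25 to C30 to 607646 in WRF41 to WRF62. They were 572038 in C33 to C38, 572371 in WRF50 to WRF55, and 512844 in WRF1 to WRF6. Among the atrium-poor libraries 0 members and 0 genes passed the Kruskal-Wallis test, with 11 members at an unadjusted p under 0.05 (10.8% of all genes). The 4 atrial markers in the table, of 5 listed, summed to 48.3 to 55788 fpkm in C (median 138), 45.2 to 62455 in W (median 317), and 60.9 to 54998 in WRF (median 1154), with Bmp10 the marker that is absent from the table. Apart from these values, the part of atrial content in the counts was not tested. In WRF, atrial content and series largely coincide and cannot be told apart.

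Values by series show this for single members. Slc39a7 had series medians of 17.6 fpkm in WRF1 to WRF6, 28.1 in WRF41 to WRF62, and 24.7 in WRF50 to WRF55, against 16.5 to 20.6 in the C series. For Slc50a1 they were 5.9, 9.11, and 8.54 in WRF against 5.75 to 6.28 in C. For Slc29a3 they were 3.04, 4.84, and 4.44 in WRF against 2.52 to 3.43 in C. In these 3 genes WRF1 to WRF6 lay within the range of the C series, and the other WRF series above all of them. In Slc48a1 the WRF series medians were 25.9, 32.6, and 29.7 fpkm against 22.9 to 27.2 in C. In C the series C33 to C38 stood apart in several ion, taurine, and zinc carriers: Slc6a6 had a median of 2.03 fpkm there against 5.81 and 7.31 in the other C series, Slc8a1 18.4 against 28.3 and 34.4, and the zinc exporter Slc30a1 1.33 against 3.07 and 4.44. This was not particular to that series. In WRF41 to WRF62 and WRF50 to WRF55, Slc6a6 had medians of 2.36 and 3.06 fpkm, Slc8a1 21.4 and 22.6, and Slc30a1 1.71 and 2.06. In WRF1 to WRF6 these medians were 5.32, 24.8, and 2.97.

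At matched hours, 0 members differed between WRF and C at light (ZT1, 5, and 9), at dark (ZT13, 17, and 21), or in the difference between them by limma, against 0.00975% of all genes at light (1 gene), 0% at dark, and 0% for the difference. At an unadjusted p under 0.05 the members numbered 25 at light (25.6% of all genes), 7 at dark (9.65%), and 0 for the difference (1.27%). Without WRF51 (ZT9) and WRF62 (ZT5), both of light hours, they numbered 2 at light (7.7% of all genes) and 14 at dark (16.9%). Slc41a1 had the smallest p at light. Its means at ZT1, 5, 9, 13, 17, and 21 were 17.9 ± 0.757, 17.6 ± 1.34, 18.9 ± 2.71, 17.9 ± 1.87, 17 ± 2.85, and 14.6 ± 1.96 fpkm (SD, n = 3) in C, 14.4 ± 1.81, 15.4 ± 1.06, 16.6 ± 0.819, 16.5 ± 2.97, 15.6 ± 1.17, and 15.9 ± 2.26 in W, and 14.8 ± 3.49, 13 ± 2.79, 13.9 ± 7.49, 16.1 ± 1.6, 15.5 ± 1.26, and 14 ± 0.418 in WRF, where the means at ZT5 and ZT9 hold WRF62 at 11.9 fpkm and WRF51 at 5.45. The WRF minus C difference was -0.43 ± 0.13 at light and -0.10 ± 0.13 at dark (limma adjusted p = 0.082 and 0.785). Slc28a2 had the smallest p at dark, with a difference of -0.38 ± 0.15 (limma adjusted p = 0.476).

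Profiles over the day are given for the main carriers. Slc2a4 means at ZT1, 5, 9, 13, 17, and 21 were 97.7 ± 7.66, 87.7 ± 5.34, 98.8 ± 31.2, 122 ± 11.9, 115 ± 25.8, and 95.1 ± 14.2 fpkm (SD, n = 3) in C and 105 ± 22.9, 71.2 ± 45.5, 77.3 ± 65.6, 107 ± 10.4, 93.9 ± 19, and 114 ± 10.6 in WRF, where the low means at ZT5 and ZT9 hold WRF62 and WRF51. Slc16a1 means were 73.2 ± 23.2, 61.9 ± 21.1, 34.1 ± 3.84, 55.6 ± 13, 60.4 ± 23.5, and 56.9 ± 19.4 fpkm in C and 35.9 ± 19.1, 77.4 ± 39.4, 65.6 ± 7.23, 71.4 ± 9.92, 52.5 ± 13.1, and 57.1 ± 8.13 in W. Its lowest mean fell at ZT9 in C and at ZT1 in W. Slc2a1 means were 4.19 ± 0.347, 4.13 ± 1.9, 6.4 ± 1.08, 7.19 ± 0.486, 5.17 ± 1.55, and 5.44 ± 1.05 fpkm in C, highest at ZT13 (harmonic regression, unadjusted p = 0.0197, q = 0.577). The iron exporter Slc40a1 was highest at ZT5 in all groups, with 8.56 ± 1.95 fpkm in C, 7.39 ± 3.54 in W, and 7.7 ± 1.59 in WRF (SD, n = 3), and its 24-h rhythm in C did not pass (unadjusted p = 0.796 by the harmonic regression over 18 rats).

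By harmonic regression with a period of 24 h, 2 of the 142 members were rhythmic in C hearts (q under 0.05, 0.848% of all genes), 0 in W (0%), and 0 in WRF (0.039%). At an unadjusted p under 0.05 they numbered 15 in C (5.91% of all genes), 3 in W (3.05%), and 11 in WRF (6.35%). The magnesium carrier Slc41a3, whose promoter is shown above, had means at ZT1, 5, 9, 13, 17, and 21 of 34.9 ± 6.03, 39.4 ± 7.06, 15.4 ± 6.11, 8.72 ± 1.45, 13.2 ± 1.56, and 23.4 ± 7.32 fpkm (SD, n = 3) in C, 21 ± 13, 19.9 ± 6.73, 15.6 ± 4.62, 17.8 ± 10.1, 26.2 ± 25.3, and 25.8 ± 6.08 in W, and 35 ± 3.31, 23.2 ± 18.4, 14 ± 13, 9.38 ± 2.75, 14.5 ± 3.63, and 28 ± 10.02 in WRF. In C all 3 rats of ZT1 and ZT5 lay above all those of ZT13 and ZT17. The relative amplitude, which is the amplitude over the mean, was 0.682 with a peak at ZT2.34 (q = 0.0039), and the 3 C series gave 0.612 to 0.727 with peaks at ZT2.15 to ZT2.61.

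In WRF, the relative amplitude of Slc41a3 was 0.60 with a peak at ZT0.529 (unadjusted p = 0.00457, q = 0.568), and without WRF51 and WRF62 it was 0.568 with a peak at ZT1.87 (unadjusted p = 0.00011, q = 0.0869). In W it was 0.241 (unadjusted p = 0.451). The W series were unlike: W1 to W11 had a relative amplitude of 0.543 with a peak at ZT1.28, W17 to W22 0.133, and W33 to W38 0.622 with a peak at ZT16.9, where W37 (ZT17) held 55.3 fpkm, the highest value of this gene in the 54 rats. The rhythm of W differed from that of C at an unadjusted p of 0.022 (limma adjusted p = 1) and that of WRF at 0.138 (adjusted p = 0.618), so no difference of rhythm was shown. Over all members 0 differed in rhythm from C in either group (0% of all genes), with 2 at an unadjusted p under 0.05 in W (1.83%) and 5 in WRF (5.76%).

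Slc37a1 had means at ZT1, 5, 9, 13, 17, and 21 of 5.36 ± 0.414, 6.91 ± 0.109, 7.06 ± 0.84, 3.96 ± 0.46, 3.98 ± 0.374, and 4.54 ± 0.714 fpkm (SD, n = 3) in C, 5.15 ± 0.804, 4.96 ± 0.164, 5.17 ± 0.777, 5.47 ± 0.48, 4.48 ± 1.51, and 4.17 ± 0.605 in W, and 5.88 ± 1.55, 4.53 ± 1.86, 6.04 ± 0.704, 4.36 ± 1.12, 4.45 ± 1.07, and 4.56 ± 1.4 in WRF. In C the 9 rats of light hours all lay above those of ZT13 and ZT17, with a relative amplitude of 0.313 and a peak at ZT5.75 (harmonic regression q = 0.00784). In W and WRF the relative amplitudes were 0.0957 and 0.106 (unadjusted p = 0.252 and 0.526), and the limma test of the difference of rhythm from C gave unadjusted p-values of 0.0494 and 0.0915, which did not pass after adjustment. Of the 15 members under an unadjusted p of 0.05 in C, 3 were sugar carriers and 3 carried fatty acids or organic ions, and 0 were among the 18 zinc or the 19 ion carriers. The next members in C were the phosphate carrier Slc20a2 (relative amplitude 0.146, peak at ZT6.87, q = 0.0506), and Slc10a6, a carrier of sulfated steroids (relative amplitude 0.561, peak at ZT15.8, q = 0.0674), both just outside the threshold. The means of Slc10a6 were 0.61 ± 0.194 fpkm at ZT1 and 2.11 ± 0.565 at ZT17 in C (SD, n = 3). Leaving out any of the C series, and so 6 of the 18 C rats, left 0 members rhythmic in C, a count with no share over all genes beside it. With each series left out in turn, the relative amplitude in C ran from 0.661 to 0.709 for Slc41a3 and from 0.299 to 0.338 for Slc37a1.

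**Figure D5:**
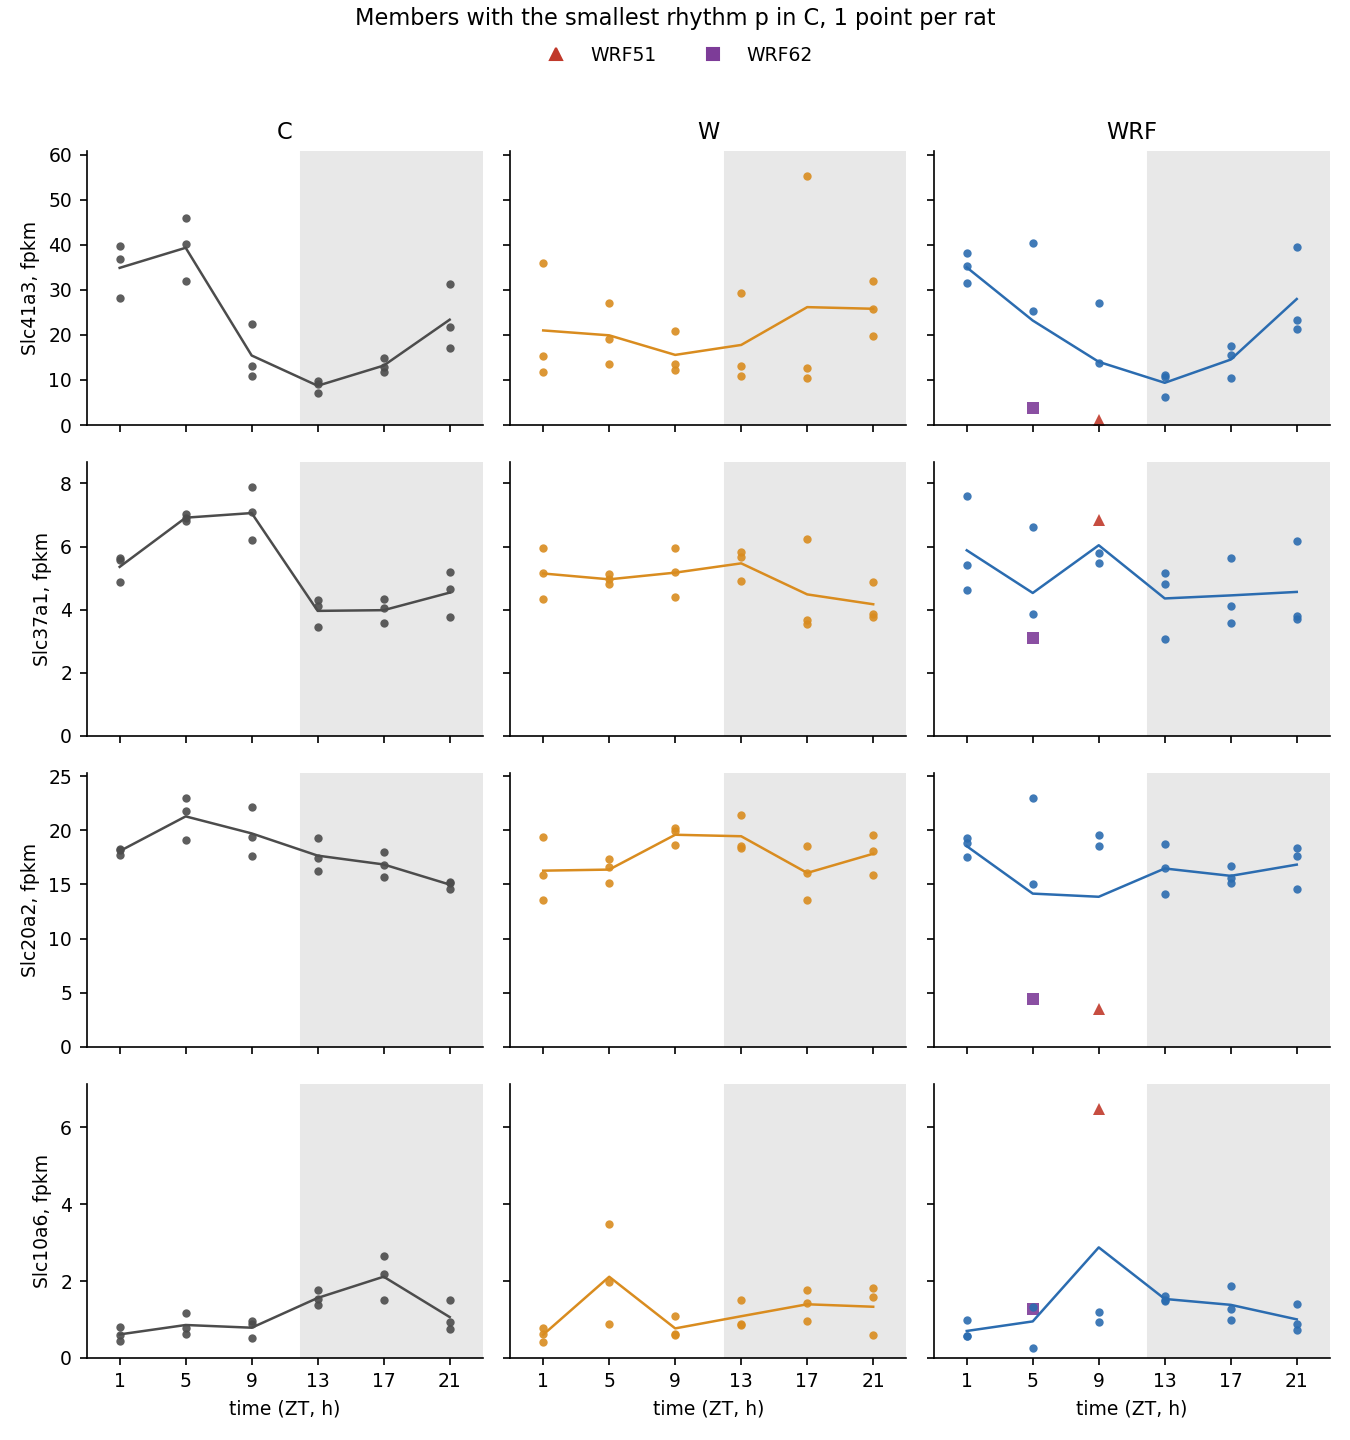
Levels in fpkm of Slc41a3, Slc37a1, Slc20a2, and Slc10a6 against time (ZT, h) in C, W, and WRF hearts, 1 point per rat, with lines through the means of 3 rats and grey over the dark hours. Slc41a3 averages 39.4 fpkm at ZT5 and 8.72 fpkm at ZT13 in C, W37 stands at 55.3 fpkm at ZT17, and WRF51 and WRF62 have their own symbols.

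Genes that work with these carriers were read from a list of 23, of which 20 are in the table. By the Kruskal-Wallis test 1 of the 20 differed among groups (9.17% of all genes) and was higher in WRF than in C (8.13%). Bsg, the chaperone that brings lactate carriers such as Slc16a1 to the membrane, read 236, 294, and 429.9 fpkm (lowest, median, highest) in C, 251, 296, and 376 in W, and 149, 359, and 459 in WRF (Kruskal-Wallis adjusted p = 0.0303). The Mann-Whitney p was 0.00992 against C and 0.000531 against W, and the Kruskal-Wallis adjusted p was 0.0267 without WRF51 and WRF62. By limma it did not pass with all rats, with 0.17 ± 0.09 in WRF over C (adjusted p = 0.195) and an adjusted p of 0.0918 against W. Slc16a1 itself did not pass. The amino acid response factor Atf4 had medians of 63.2, 70.3, and 73.5 fpkm (Kruskal-Wallis adjusted p = 0.134), and by limma it passed in WRF over C with all rats (0.27 ± 0.09, adjusted p = 0.038). Without WRF51 and WRF62 the limma difference of Atf4 was 0.17, and its Kruskal-Wallis adjusted p was 0.23. The lactate dehydrogenase subunits Ldhb and Ldha had C medians of 2052 and 503 fpkm, and Hk1, which phosphorylates the glucose that enters, 39.1. Of the 20, 1 was rhythmic in C hearts (0.848% of all genes), the factor Klf15, with a relative amplitude of 0.296 and a peak at ZT13.6 (harmonic regression q = 0.0091), against 0.0377 in W and 0.133 in WRF, where it did not pass. The limma test of the difference of rhythm from C gave unadjusted p-values of 0.0267 in W and 0.221 in WRF. Neither passed after adjustment, so no difference of rhythm was shown.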

How the data were processed

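Directional poly(A) RNA-Seq was done on whole rat hearts, 1 library per rat, so that replicates are separate rats. The authors aligned reads with TopHat2 to the rat genome build rn6, estimated fpkm with Cufflinks using strand, and deposited 1 table of fpkm values for the genes that exceeded 1 fpkm in 18 or more of the 54 libraries. This held for all 10257 entries, of which 259 are copies of a symbol. Read depth cannot be read from fpkm, so no interval for counting error is given.

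Here each gene was compared among C, W, and WRF with the 2-sided Kruskal-Wallis test, adjusted over all 10257 entries by Benjamini-Hochberg, and, where that passed, with 2-sided Mann-Whitney tests between pairs of groups (unadjusted p under 0.05), using scipy 1.17.1 in Python 3.11.15. These are the tests of the study. The size of each difference and its standard error were estimated on the log2(fpkm + 1) scale with limma 3.58.1 under R 4.3.3, which understates changes of low genes. Limma on means per group and time gave the contrasts at light and dark hours. A difference of rhythm was tested by a separate limma fit with cosine and sine terms for each group, using a moderated F test. Rhythms were fitted per group by harmonic regression of 24 h with an F test. The study instead combined p-values of several rhythm algorithms, harmonic regression among them, by Fisher's method. It reported more rhythmic genes in WRF than in C, and fewer in W. The counts of rhythmic genes given here are therefore not like for like with those of the study. Times were those in the sample titles, which differ from a further label in 12 WRF rats. An atrium-containing library is one with Myl7 above 100 fpkm. Scripts recovered changes in simulated data, which were drawn independently for each gene and held no outlying libraries, series, or shared differences in atrial content.

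The members, classes, partner genes, markers, and tests were chosen with earlier results of these data known. Members named with values are those called among groups, the 3 of each class with the smallest Kruskal-Wallis p and the 2 with the smallest rhythm p, the 15 highest in C, and 30 chosen by function, of which Slc27a6 was not used here. The values of some listed genes are not reported here. Slc16a11, Slc38a3, Slc1a3, Slc3a1, Slc35b2, and Slc35c1 were named after their values were seen. Alternatives were another scaling, pseudocount, or filter, and leaving out libraries or series.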

Additional observations from a re-analysis of the deposited data

How the results depend on the processing

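Counts were recomputed under other settings, of which those without C27, and those that combine the exclusion of WRF51 and WRF62 with another setting, were chosen after seeing the data. The cause of each change was not tested. Counts of this section that were also given above have their share over all genes there. The other counts have no such share beside them, and do not show whether the members moved more than all genes. For the members differing among groups (2), the number was 0 without WRF51 and WRF62, 1 without WRF51, 5 without C27, 0 without all 3, 6 of 58 when only genes averaging 5 fpkm or more were tested, 0 in the atrium-poor libraries with or without WRF51 and WRF62, 0 under median-of-ratios scaling without WRF51 and WRF62, 7 by limma, 8 by limma with a pseudocount of 0.1, and 4 by limma without WRF51 and WRF62. In the same order of settings, those higher in WRF than in C (1) numbered 0, 0, 3, 0, 3, 0, 0, 6, 6, and 2, and those differing between WRF and W (2) numbered 0, 1, 5, 0, 5, 0, 0, 17, 17, and 8. Those lower in WRF than in C (0) numbered 2 under median-of-ratios scaling, 1 without C27, 2 among genes averaging 5 fpkm or more, and 2 in each limma fit. Those differing between W and C (1) numbered 0 without WRF51 and WRF62, without these and C27, in the atrium-poor libraries, and in each limma fit, 0 under median-of-ratios scaling without WRF51 and WRF62, and 2 among genes averaging 5 fpkm or more. Rhythmic members numbered 4 in C by harmonic regression on log2(fpkm + 1), against 2, and 1 in WRF under median-of-ratios scaling without WRF51 and WRF62, against 0. The median log2 ratio of the WRF over the C median was 0.0196, and -0.0457 under median-of-ratios scaling, -0.0634 under this scaling without WRF51 and WRF62, -0.0248 in the atrium-poor libraries, and -0.0361 in these without WRF51 and WRF62. Over all genes these medians were 0.0779, 0.000871, 0.00255, 0.0744, and 0.0543.

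Leaving out each series of 6 rats in turn gave 0 to 45 members differing among groups, 0 to 37 higher and 0 to 20 lower in WRF than in C, 0 to 44 differing between WRF and W, 0 to 13 between W and C, 0 to 2 rhythmic in C, 0 to 56 at light hours, and 0 to 3 at dark hours. The highest numbers came without WRF1 to WRF6 or C33 to C38. The median log2 ratio ran from -0.0409 to 0.101. The log2 ratio of the WRF over the W median ran from 0.295 to 0.414 for Slc30a6 and from 0.375 to 0.865 for Slc29a3, and the relative amplitude in C from 0.661 to 0.709 for Slc41a3 and from 0.299 to 0.338 for Slc37a1. The log2 ratios of Slc30a6 and Slc29a3 were above 0 in each setting run for them. Of the members called by limma and read by atrial content, the atrium-poor medians without WRF51 and WRF62 lay the other way in Slc39a3 (2.97 fpkm in WRF, 3.11 in C, and 3.06 in W), Slc5a6 (6.92 in WRF and 7.27 in W), and Slc27a4 (3.09 in WRF and 3.20 in W), and in Slc48a1 against C (26.1 and 26.7). They also did so in Slc6a6 (4.14 in WRF and 3.81 in W), which limma called only without WRF51 and WRF62. The atrium-poor WRF libraries behind these medians were WRF1 to WRF6, WRF54, and WRF55. Atrial content and series therefore cannot be told apart in them.

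Rat numbers shared by C and W gave 12 pairs whose deviations correlated at -0.185 to 0.647, 6 of them over 0.1 and 1 of them best with its own number. Whether rats of the same number share more than the number was not tested. With this replicate block in limma 0 members differed between W and C, as without it, and 23 against 9 were at an unadjusted p under 0.05.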
